A study of Mus musculus with 20 samples.

Results

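Laminins are secreted trimers of an α, a β and a γ chain that form the sheet of a basement membrane, and integrins are pairs of an α and a β chain that bind laminin, fibronectin, collagen and other matrix proteins at the cell surface. The genes described here are the 37 rows of a footprint count table of 22416 genes whose names are those of an integrin or a laminin chain. They comprised 11 laminin chains, 18 integrin α chains and 8 integrin β chains. The rule used their names and no measured value, although the members were chosen with earlier results of these data known. They were followed in Ribo-Seq libraries, which count the mRNA fragments that ribosomes protect from a nuclease, of mouse embryonic stem cells (mESCs). The 4 groups were eIF2αA/A cells (KI) in LIF, KI cells in LIF/2i, eIF2α+/+ cells (WT) in LIF and WT cells in LIF/2i. In the KI, alanine replaces the residue of eIF2α that stress kinases phosphorylate. LIF/2i holds leukemia inhibitory factor with PD0325901, which inhibits MEK, and CHIR99021, which inhibits GSK3. LIF holds the factor without these inhibitors.

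All groups spent 6 days in their medium, a serum-free medium with KnockOut serum replacement and 1000 U/mL LIF, and all lysates came from cells washed with cycloheximide. Each group had 3 libraries digested with micrococcal nuclease (MNase) and 2 digested with RNase I, 20 libraries in all. The labels give neither a parental line nor a number of clones for either genotype, nor the origin of the replicates in cultures. The p-values therefore measure the spread between libraries as labelled. The design sets the knock-in against wild type within each medium, and LIF against LIF/2i within each genotype, and allows the responses to be compared. Footprints alone were analysed, which do not separate the amount of an mRNA from its translation. In such bulk samples, fewer cells of a type and less RNA per cell cannot be told apart.

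As background, mouse embryos build their first basement membranes from laminin with the α1 or α5 chain together with β1 and γ1, and the β1 integrins, chiefly with α6, receive it on the epiblast. A γ chain is needed for a trimer to form and an α chain for its release, so the chains of a trimer are made in the same cells. Primitive endoderm and its parietal derivative are the classic producers of laminin with the α1 chain in the early embryo. Cultured mESCs also attach through integrins that bind fibronectin and vitronectin, among them the α5 and αV chains. The integrins of leukocytes, with the β2 or β7 chain or the αE, αL, αM, αX or αD chain, serve cell traffic in blood and mucosa.

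The MNase libraries held 6560173 to 8894080 counts in KI and 2127850 to 5461210 in WT, so depth and genotype cannot be told apart there. The RNase I libraries held 1965050 to 16359039 counts in KI and 4011036 to 22916734 in WT. KI replicate 1 stood apart from the other MNase libraries in both media, at -45.5 and -44.4 on the third principal component, against -1.01 to 21.6 for the other 10, so counts are given below with and without it. It is set aside for a trait seen in these same data. The KI replicates that remain, 2 and 3, were alike, with Spearman correlations of 0.995 in LIF/2i and 0.992 in LIF. Calls gained without replicate 1 are therefore descriptions of these libraries and no separate evidence of a difference. The Y-linked genes also set libraries apart. Ddx3y was at 12.2 to 65.4 CPM (counts scaled to a common library total, here with plain totals) in the 4 libraries of KI replicate 1 and 0.670 to 4.16 in the other 6 KI libraries. In WT it was at 17.8 to 29.9 in the 4 libraries of replicate 2 and 89.0 to 160.5 in the other 6. Eif2s3y, another Y-linked gene, was at 9.12 to 30.4 and 0.670 to 3.56 in the same KI libraries, and at 18.3 to 31.4 and 59.7 to 103 in the same WT libraries. These levels moved with genotype and replicate number, and their part in the results below was not tested. Counts without WT replicate 2 are therefore given as well. Same-numbered MNase and RNase I libraries deviated together from their group means (correlations 0.486 to 0.711 in the 4 groups), so values with RNase I are not independent of those with MNase. Eif2s1, the gene of eIF2α, was at 130.4 to 178 CPM, here and below with TMM-adjusted totals, in KI and 89.0 to 117 CPM in WT with MNase, and its level does not check the genotype labels. All 21 markers of naive and core pluripotency had footprints in every group. With MNase they summed to 6199 to 6364 CPM in KI in LIF and 8248 to 9038 in KI in LIF/2i. In WT the sums were 6608 to 8509 CPM in LIF and 8053 to 9183 in LIF/2i. With MNase in edgeR at an adjusted p under 0.05, 2 rose and 13 fell in LIF in KI, beside 18.7% of all genes. In WT 2 rose and 9 fell (21%). Against WT, KI had 0 higher and 4 lower in LIF (13.4%), and 3 higher and 1 lower in LIF/2i (25.4%). Their part in the results below was not tested.

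Markers of other cell types also moved with the groups. The 18 markers of primitive and extraembryonic endoderm summed to 262 to 356 CPM in KI in LIF, 70.1 to 155 in KI in LIF/2i, 415 to 613 in WT in LIF and 55.2 to 89.5 in WT in LIF/2i with MNase, with 1 or 2 markers at 0 in each group. The 15 trophoblast markers summed to 394 to 478 CPM in KI in LIF, 136 to 329.6 in KI in LIF/2i, 854 to 1258 in WT in LIF and 252 to 413 in WT in LIF/2i, with 1 at 0 in each group. The 19 fibroblast and feeder markers summed to 331 to 369 CPM in KI in LIF and 87.0 to 120.5 in KI in LIF/2i, against 272, 1119 and 152 in the 3 WT libraries in LIF and 36.7 to 52.1 in WT in LIF/2i, with 1 to 3 at 0. WT LIF replicate 2 held the highest fibroblast sum with MNase, and with RNase I as well (985 CPM, against 156 in replicate 1). The 10 leukocyte markers summed to 14.2 to 38.4 CPM over all 4 groups, with 1 to 4 at 0. Adgre1, the macrophage antigen F4/80, and Ptprc, the leukocyte antigen CD45, were at 0 in both LIF/2i groups. Other lists were lower in LIF with MNase. The 7 stratified epithelium markers, of which 2 were tested, summed to 207 to 320 CPM in KI in LIF and 382 to 522 in KI in LIF/2i. In WT they summed to 320 to 386 CPM in LIF and 503 to 644 in LIF/2i. The 7 endothelium markers summed to 132 to 189 CPM in KI in LIF and 193 to 230 in KI in LIF/2i. In WT their sums were 141 to 159 CPM in LIF and 275 to 394 in LIF/2i. The part of these cell types in the results below was not tested.

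LIF was first compared with LIF/2i in each genotype. Laminin β1, the laminin-binding integrin α3, the collagen-binding integrin α1 and integrin αM rose in LIF in both genotypes, while laminin γ1 and the vitronectin receptor chains αV and β5 fell in both. Of the 27 members tested with MNase, 11 passed in KI, 6 higher and 5 lower in LIF, against a background of 18.7% of the 12806 genes tested, 8.37% higher and 10.3% lower. In WT 15 passed, 10 higher and 5 lower in LIF, against a background of 21%, 9.99% higher and 11% lower. The median log2 fold change over the 27 was 0.15 in KI and 0.49 in WT, beside 0.00 and 0.01 over all genes. The 7 members named were among 8 that passed in both genotypes, and each of the 8 moved the same way in both. With RNase I, 1 of 26 members passed in KI, higher in LIF, against a background of 3.46%, 1.41% higher and 2.04% lower. In WT 15 passed with RNase I, 12 higher and 3 lower, against 13.6%, 7.17% higher and 6.47% lower. All 11 MNase calls in KI and all 15 in WT had the same sign with RNase I. Fold changes are given on the log2 scale throughout. Passing means an adjusted p under 0.05 from the quasi-likelihood test of edgeR, adjusted by Benjamini-Hochberg over all genes tested with that nuclease.

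Leaving out 1 MNase library at a time gave 7 to 11 calls in KI, with 7 calls without KI LIF replicate 2. Counts with 1 library left out, here and below, are not set against all genes. They are therefore not read as a trait of the members. In WT it gave 8 to 16, with 8 calls without WT LIF/2i replicate 1 or WT LIF replicate 3, and 9 without WT LIF/2i replicate 2 or WT LIF replicate 1. Without KI replicate 1 in both media, 12 members passed in KI (25% of all genes) and 17 in WT (32.3%). Without WT replicate 2 in both media, 9 passed in KI (16.8% of all genes) and 6 in WT (9.58%). The RNase I count in WT was 3 without WT LIF/2i replicate 1, WT LIF/2i replicate 2 or WT LIF replicate 2, and 5 without WT LIF replicate 1. The RNase I count in KI was 3 if KI LIF/2i replicate 1 was left out and 4 if replicate 2 was.

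**Figure D1:**
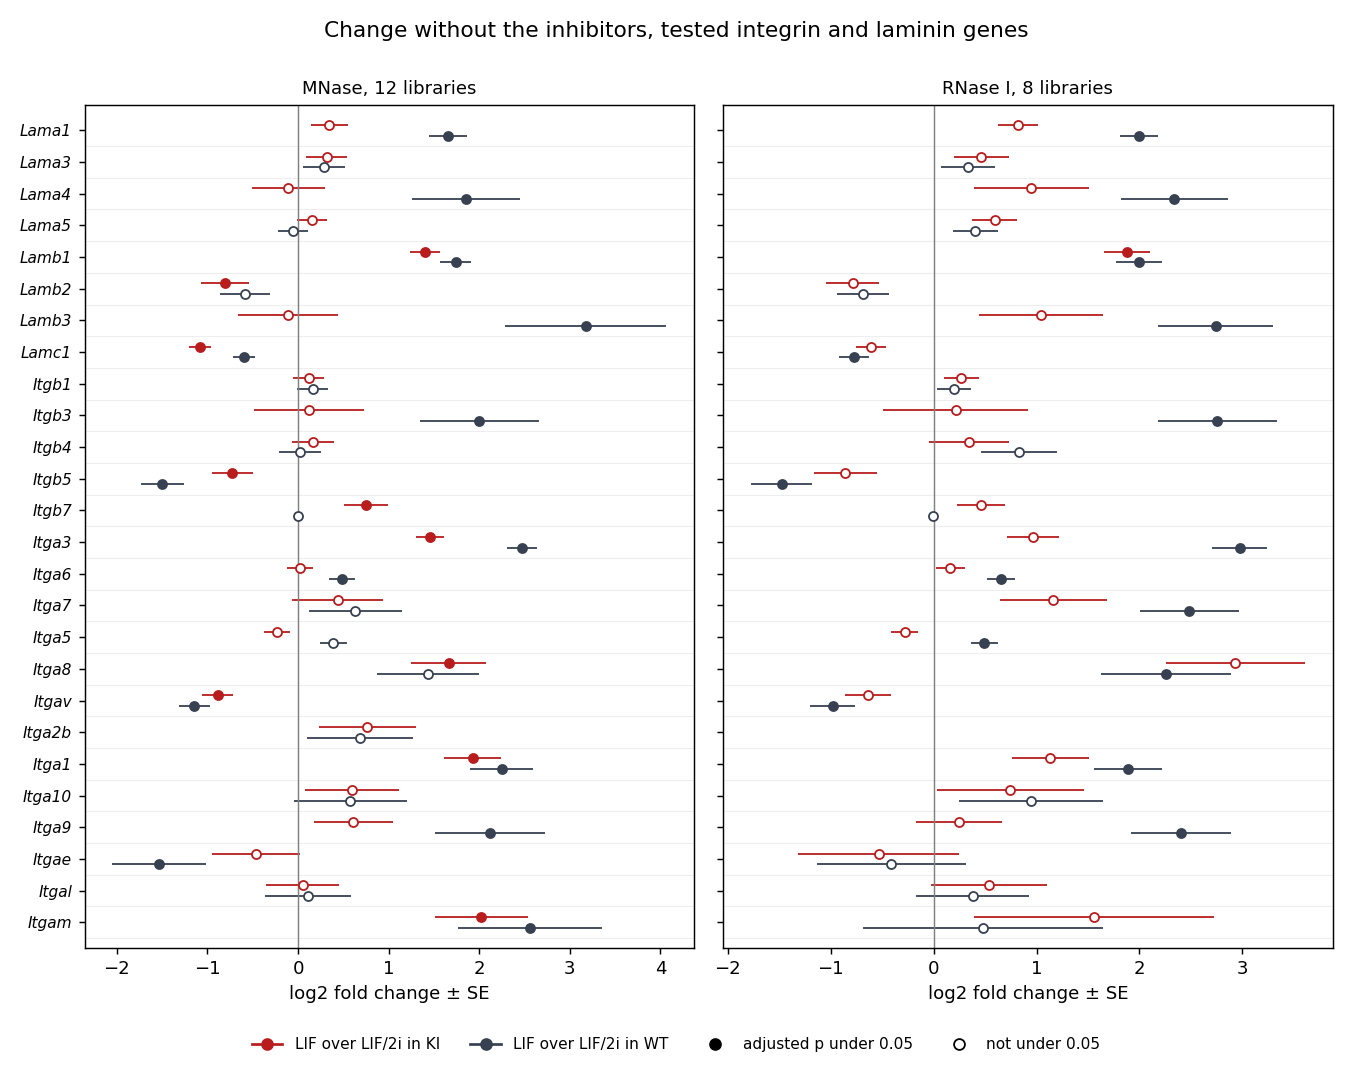
Log2 fold change of LIF over LIF/2i ± SE for 26 tested members, with MNase on the left and RNase I on the right, KI drawn above WT and filled points marking an adjusted p under 0.05. Lamb1, Itga3 and Itga1 lie right of 0 and Lamc1, Itgav and Itgb5 left of 0 in both genotypes with both nucleases; a point without a bar has a fold change too near 0 for an SE, and Itga2b was not tested with RNase I.

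KI was then compared with WT within each medium. In LIF/2i the integrin chains α3, α9, α5 and α6 and the laminin chains α4, β1, β3 and γ1 were higher in KI, and the integrin chains β4 and β5 were lower. In LIF laminin α1 was lower in KI and integrin β7 was higher. With MNase 10 of 27 members passed in LIF/2i, 8 above WT and 2 below, against a background of 25.4% of all genes, 13.8% higher and 11.5% lower. In LIF 2 of 27 passed, 1 in each direction, against a background of 13.4%, 7.36% higher and 6.05% lower. The median log2 fold change over the 27 was 0.38 in LIF/2i and 0.08 in LIF, beside 0.01 and -0.01 over all genes. With RNase I, Itga3 and Itga9 were the 2 of 26 members that passed in LIF/2i, both higher in KI (background 0.232%). Lama1 was the 1 member that passed in LIF, lower in KI (background 0.116%). Of the 10 MNase calls in LIF/2i, 8 had the same sign with RNase I, and Lamb1 and Lamc1 had the opposite sign.

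The counts between genotypes moved as single libraries were left out, and those counts are again not set against all genes. In LIF/2i 3 members passed without KI LIF/2i replicate 2 or 3, 5 without WT LIF/2i replicate 1 and 6 without WT LIF/2i replicate 2. Leaving out KI LIF/2i replicate 1 gave 13. In LIF 4 passed without KI LIF replicate 1, and 1 passed without any one of WT LIF replicates 1, 2 and 3, KI LIF replicates 2 and 3, and KI LIF/2i replicates 2 and 3. When KI replicate 1 was dropped from both media, 16 members passed in LIF/2i, beside 39.1% of all genes, with 12 above WT and 4 below. In LIF 11 passed, 8 of them above WT, beside 26.7%. When WT replicate 2 was dropped from both media, 5 members passed in LIF/2i (16.5% of all genes) and 1 in LIF (6.68%). Since KI libraries shared deviations between media, with replicate 1 apart from 2 and 3, the replicate number was also fitted as a block within KI. It gave 13 calls in LIF/2i (34.7% of all genes) and 6 in LIF (22.3%). For LIF against LIF/2i it gave 11 calls in KI (26.1%) and 17 in WT (28.3%). That block takes the shared KI deviation out of the error, although it remains part of the error of a difference between genotypes. With RNase I no member passed in LIF without any one library of either genotype in LIF. In LIF/2i none passed without any one of the 4 WT libraries or without KI LIF replicate 1, and 1 passed without KI LIF replicate 2. At an unadjusted p under 0.05, 8 members passed with RNase I in each medium, beside 12.8% of all genes in LIF/2i and 13.3% in LIF.

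**Figure D2:**
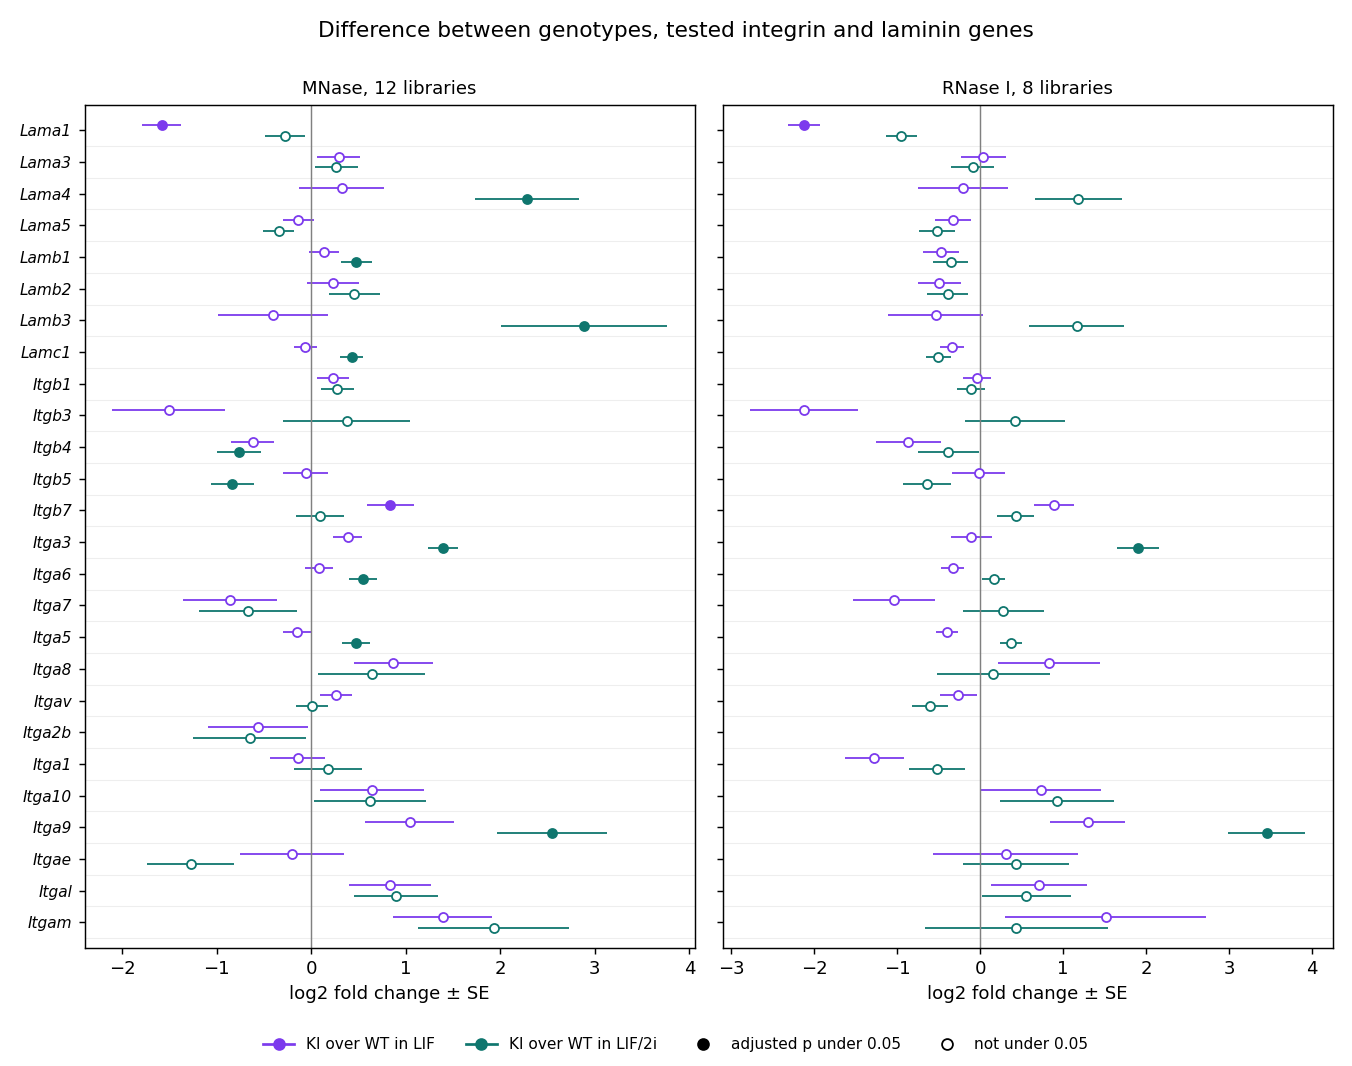
Log2 fold change of KI over WT ± SE for 26 tested members, with MNase on the left and RNase I on the right, LIF drawn above LIF/2i and filled points marking an adjusted p under 0.05. Itga3 and Itga9 in LIF/2i and Lama1 in LIF are filled with both nucleases; Itga2b was not tested with RNase I.

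Among the laminin chains, Lama1 encodes the α1 chain of the first embryonic laminin. With MNase it was at 41.5, 37.6 and 39.3 CPM in LIF and 29.2, 25.1 and 39.1 CPM in LIF/2i in KI, against 127, 130.5 and 97.8 CPM in LIF and 39.7, 45.8 and 27.5 CPM in LIF/2i in WT. The 3 WT libraries in LIF were above all 9 others, and the KI libraries of the media overlapped. Lama1 rose in WT in LIF by a log2 fold change of 1.65 (SE 0.21, adjusted p = 2.2e-04), and in KI the difference was 0.34 (adjusted p = 0.271). In LIF it was lower in KI than in WT with a log2 fold change of -1.58 (SE 0.21, adjusted p = 0.00137), and in LIF/2i the difference was -0.27 (adjusted p = 0.363). The highest adjusted p with any 1 library left out was 0.00175 for WT in LIF and 0.00991 for KI against WT in LIF. The RNase I levels were 63.8 and 49.3 CPM in LIF and 31.5 and 32.8 CPM in LIF/2i in KI, against 265 and 227 CPM in LIF and 57.3 and 66.6 CPM in LIF/2i in WT. Both WT libraries in LIF were again the highest, and KI was lower than WT in LIF with a log2 fold change of -2.12 (SE 0.19, adjusted p = 0.0279). With RNase I the KI libraries of the media did not overlap, at 0.82 (adjusted p = 0.0586). In LIF/2i KI was below WT without overlap, at -0.95 (adjusted p = 0.0965). A fit of both nucleases together, which takes all 20 libraries as independent, gave 0.52 (adjusted p = 0.0333) between media in KI and -0.53 (adjusted p = 0.0310) between genotypes in LIF/2i. The endoderm sums were 262 to 356 CPM in KI in LIF and 415 to 613 CPM in WT in LIF. The trophoblast sums were 394 to 478 and 854 to 1258 CPM in the same groups. Both were lower in KI in LIF, as Lama1 was. In KI in LIF/2i they were lower still, at 70.1 to 155 CPM for endoderm and 136 to 329.6 CPM for trophoblast. Lama1 overlapped between those KI media with MNase. The part of these cell types in the values of Lama1 was not tested.

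Lamb1, the β1 chain, was at 246, 249.97 and 309 CPM in LIF and 104, 113 and 88.2 CPM in LIF/2i in KI, against 215, 267 and 247 CPM in LIF and 78.7, 56.3 and 83.8 CPM in LIF/2i in WT with MNase. In both genotypes every library in LIF was above every library in LIF/2i. Lamb1 rose in LIF by 1.40 (SE 0.16, adjusted p = 1.2e-04) in KI and by 1.74 (SE 0.17, adjusted p = 4.8e-05) in WT. With RNase I the levels were 404 and 353 CPM in LIF and 124 and 80.8 CPM in LIF/2i in KI, against 504 and 546 CPM in LIF and 147 and 116 CPM in LIF/2i in WT, again without overlap between media, with log2 fold changes of 1.88 (SE 0.22, adjusted p = 0.00846) in KI and 2.00 (SE 0.22, adjusted p = 0.00187) in WT. Between genotypes in LIF/2i it was higher in KI by 0.48 (SE 0.17, adjusted p = 0.0498) with MNase, a call that was lost without KI LIF replicate 2, KI LIF/2i replicate 1, 2 or 3, WT LIF replicate 1, 2 or 3 or WT LIF/2i replicate 1 or 2 (adjusted p 0.05003 to 0.174), and also with scaling by library totals alone (0.121), without the filter on low counts (0.0559), with a replicate block (0.0554), without KI replicate 1 in both media (0.0517), without WT replicate 2 in both media (0.184) and with both nucleases in 1 fit (0.543). The RNase I difference ran the other way, at -0.36 (adjusted p = 0.526).

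Lamc1, the γ1 chain shared by most laminin trimers, moved the opposite way. It was at 457, 443 and 504 CPM in LIF and 972, 1037 and 975 CPM in LIF/2i in KI, against 459.9, 469.5 and 534 CPM in LIF and 749.9, 842 and 628 CPM in LIF/2i in WT with MNase. The media did not overlap in either genotype, and the 3 KI libraries in LIF/2i were the highest of the 12. Lamc1 fell in LIF with a log2 fold change of -1.09 (SE 0.12, adjusted p = 8.9e-05) in KI and -0.60 (SE 0.12, adjusted p = 0.00385) in WT. Its RNase I values were 769.7 and 650.2 CPM in LIF and 1138 and 1024 CPM in LIF/2i in KI, against 947 and 847 CPM in LIF and 1432 and 1629 CPM in LIF/2i in WT. There the 2 WT libraries in LIF/2i, not those of KI, were the highest. The fall in WT passed again at -0.77 (SE 0.15, adjusted p = 0.0114) while KI had -0.61 (adjusted p = 0.0649). In LIF/2i Lamc1 was higher in KI than in WT by 0.43 (SE 0.12, adjusted p = 0.0210) with MNase and at -0.50 (adjusted p = 0.221) with RNase I. The MNase call was lost without KI LIF/2i replicate 2 or 3 or WT LIF/2i replicate 3 (adjusted p 0.0509 to 0.0842). It was also lost with scaling by library totals alone (0.0517) and with both nucleases in 1 fit (0.778). The fall in WT with MNase was lost without WT replicate 2 in both media, at -0.46 (adjusted p = 0.0629).

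**Figure D3:**
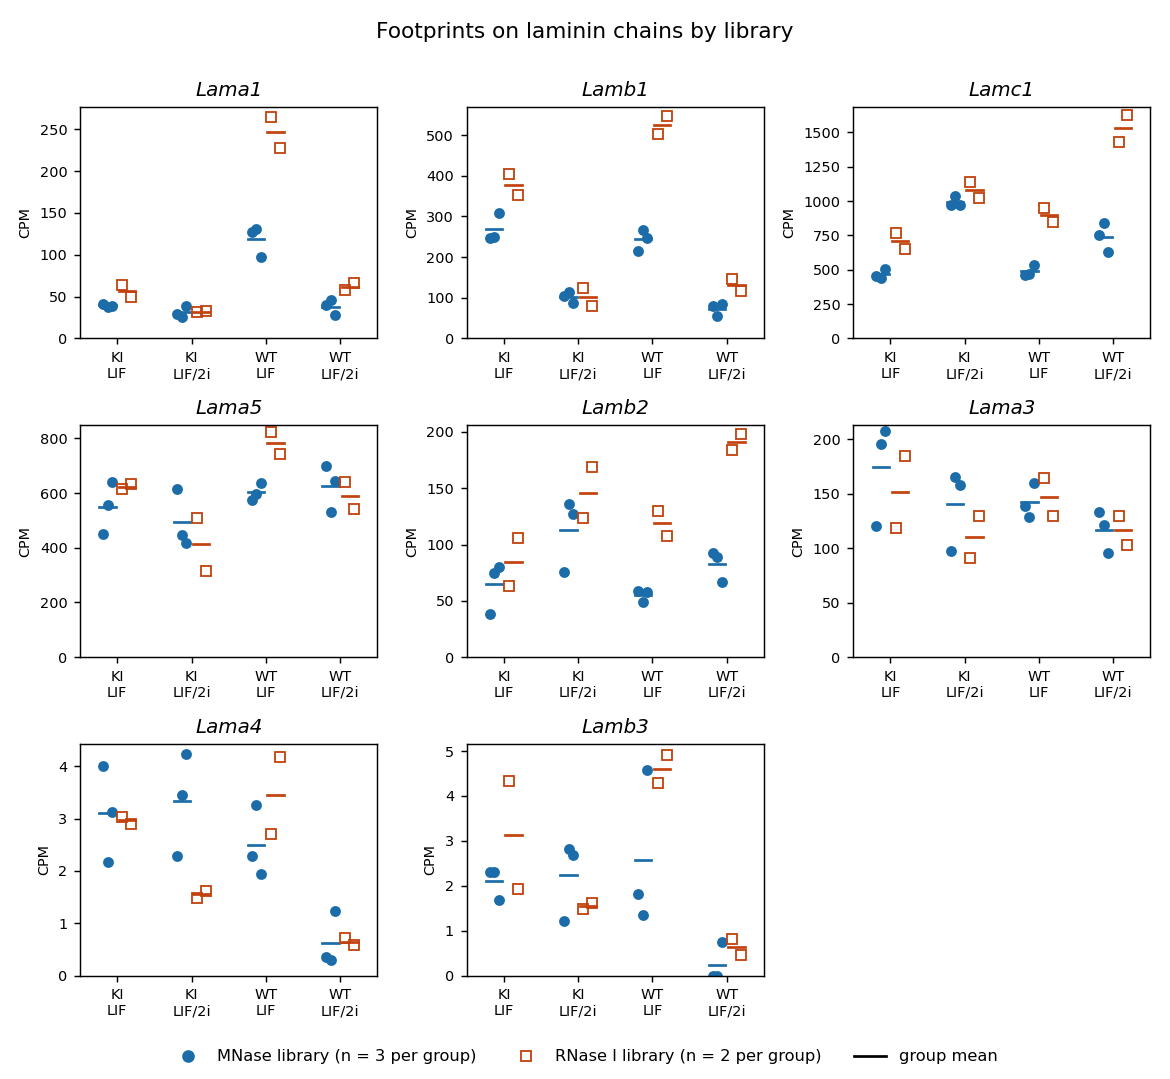
Footprints in CPM on 8 laminin chains in each library, with filled circles for MNase (3 per group), open squares for RNase I (2 per group) and a bar for the group mean. Lamb1 is higher and Lamc1 is lower in LIF than in LIF/2i in both genotypes, whereas Lama1 is highest in the WT libraries in LIF, at 97.8 to 130.5 CPM with MNase.

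Lama5 encodes the α5 chain, which joins β1 or β2 and γ1 in many basement membranes. It was at 450.5, 555 and 639 CPM in LIF and 614, 446 and 418 CPM in LIF/2i in KI, against 576, 595 and 635 CPM in LIF and 699, 529 and 645 CPM in LIF/2i in WT with MNase. The groups compared overlapped, and no comparison passed, with adjusted p between 0.144 and 0.859 in the 4 comparisons between groups. When both KI replicates 1 were dropped, it was lower in KI in LIF/2i, at -0.53 (adjusted p = 0.00528), and higher in KI in LIF than in LIF/2i, at 0.47 (adjusted p = 0.0252). The RNase I libraries held 614 and 633 CPM in LIF and 510.4 and 313 CPM in LIF/2i in KI, against 823 and 741 CPM in LIF and 640.5 and 541 CPM in LIF/2i in WT, with KI below WT in both media and no call.

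Lamb2 encodes the β2 chain, known from the neuromuscular synapse and the kidney filter. Its levels were 38.3, 75.0 and 80.2 CPM in LIF and 75.9, 136 and 127 CPM in LIF/2i in KI, against 58.4, 48.8 and 58.0 CPM in LIF and 92.5, 89.2 and 66.4 CPM in LIF/2i in WT with MNase. KI replicate 1 was the lowest KI library in both media, and the KI media overlapped through it. Lamb2 fell in LIF in KI with a log2 fold change of -0.81 (SE 0.27, adjusted p = 0.0486), and in WT the difference was -0.58 (adjusted p = 0.151). The KI call was lost without KI LIF replicate 1 or 2, KI LIF/2i replicate 2 or 3, WT LIF replicate 1, 2 or 3 or WT LIF/2i replicate 1 or 2 (adjusted p 0.0621 to 0.172), and also with scaling by library totals alone (0.0910), with libraries thinned to the smallest total (0.0971) and without WT replicate 2 in both media (0.0795). When both KI replicates 1 were dropped, it was higher in KI than in WT in LIF/2i, at 0.68 (adjusted p = 0.00305), and in LIF, at 0.49 (adjusted p = 0.0285). The WT difference between media was then -0.58 (adjusted p = 0.00696). It was -0.58 (adjusted p = 0.0118) with the block within KI and -0.66 (adjusted p = 0.0243) with both nucleases in 1 fit. Digestion with RNase I gave 63.4 and 106 CPM in LIF and 124 and 169 CPM in LIF/2i in KI, against 129.7 and 108 CPM in LIF and 184 and 198 CPM in LIF/2i in WT, where KI was below WT in LIF/2i (-0.39, adjusted p = 0.545).

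Lama3 and Lamb3 encode chains found in the laminin of skin and other epithelia. Lama3, the α3 chain, was at 120.2, 195 and 207 CPM in LIF and 97.0, 166 and 157 CPM in LIF/2i in KI, against 139, 128 and 159.8 CPM in LIF and 133, 121 and 95.6 CPM in LIF/2i in WT with MNase, and no comparison passed with all libraries. KI replicate 1 was the lowest KI library in each medium. Without it in both media Lama3 was higher in KI in LIF/2i, at 0.47 (adjusted p = 0.0179), and in LIF, at 0.49 (adjusted p = 0.0199). RNase I gave levels of 118 and 184 CPM in LIF and 90.6 and 129 CPM in LIF/2i in KI, against 164 and 129 CPM in LIF and 129 and 103 CPM in LIF/2i in WT, and the groups compared overlapped. Lamb3, the β3 chain, was scarce, at 2.31, 2.32 and 1.68 CPM in LIF and 1.22, 2.82 and 2.68 CPM in LIF/2i in KI, against 1.83, 1.36 and 4.57 CPM in LIF and 0, 0 and 0.738 CPM in LIF/2i in WT with MNase. The 3 WT libraries in LIF/2i held 3 counts in all, in 1 library, beside 49 counts in KI in LIF/2i and 35 in WT in LIF. The ratio of summed counts per summed library total was 7.84 for KI over WT in LIF/2i (exact 95% interval 2.53 to 39.3) and 10.4 for LIF over LIF/2i in WT (3.27 to 52.8), intervals that cover counting error only. Both differences passed (adjusted p = 0.0257 between genotypes and 0.0197 between media). The call between genotypes was lost without KI LIF/2i replicate 2 or 3 or WT LIF/2i replicate 1 or 2 (adjusted p 0.0649 to 0.0866). It was further lost without WT replicate 2 in both media (0.0818) and that between media without WT LIF replicate 3 or WT LIF/2i replicate 1 or 2 (adjusted p 0.0653 to 0.130). The adjusted p was also above 0.05 without WT replicate 2 in both media (0.0592). The RNase I levels were 4.34 and 1.93 CPM in LIF and 1.47 and 1.63 CPM in LIF/2i in KI, against 4.28 and 4.92 CPM in LIF and 0.814 and 0.462 CPM in LIF/2i in WT, and the rise in WT in LIF passed again at 2.74 (SE 0.55, adjusted p = 0.0139).

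Lama4, the α4 chain of vessel walls and muscle, was at 4.00, 2.17 and 3.13 CPM in LIF and 2.29, 3.46 and 4.23 CPM in LIF/2i in KI, against 2.28, 3.25 and 1.93 CPM in LIF and 0.355, 0.293 and 1.23 CPM in LIF/2i in WT with MNase. The 3 WT libraries in LIF/2i were below the other 9. It was higher in KI than in WT in LIF/2i by 2.28 (SE 0.55, adjusted p = 0.00981), a call that stayed under 0.05 with any 1 library left out (highest adjusted p 0.0411). It rose in WT in LIF by 1.85 (SE 0.60, adjusted p = 0.0395), a call that was lost without KI LIF replicate 3, KI LIF/2i replicate 2, WT LIF replicate 1, 2 or 3 or WT LIF/2i replicate 1 or 2 (adjusted p 0.0534 to 0.129), and also without the filter on low counts (0.0502), with DESeq2 (0.0527), with a replicate block (0.0524) and without WT replicate 2 in both media (0.274). With RNase I the levels were 3.04 and 2.90 CPM in LIF and 1.47 and 1.63 CPM in LIF/2i in KI, against 2.70 and 4.18 CPM in LIF and 0.724 and 0.577 CPM in LIF/2i in WT, with WT in LIF/2i again the lowest and the rise in WT at 2.34 (SE 0.52, adjusted p = 0.0198). Between genotypes in LIF/2i the RNase I difference was 1.18 (adjusted p = 0.388). The 3 WT MNase libraries in LIF/2i held 7 counts of Lama4 in all, beside 72 in KI in LIF/2i. The other laminin chains, Lama2 of muscle and Lamc3, were too scarce to be tested, with at most 1.36 CPM in any MNase library.

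Of the integrin β chains, Itgb1, the partner of most α chains, had 488, 359 and 374 CPM in LIF and 387, 357 and 380.4 CPM in LIF/2i in KI, against 282, 422 and 333 CPM in LIF and 307, 254 and 365 CPM in LIF/2i in WT with MNase. The groups compared overlapped, no comparison passed, and the log2 fold changes lay between 0.12 for LIF over LIF/2i in KI and 0.28 for KI over WT in LIF/2i. Its RNase I values were 440.2 and 389.6 CPM in LIF and 368 and 319.8 CPM in LIF/2i in KI, against 383 and 469 CPM in LIF and 403 and 338 CPM in LIF/2i in WT, and none passed. Itgb5, which pairs with αV to bind vitronectin, was at 55.9, 39.1 and 44.2 CPM in LIF and 104, 58.0 and 67.7 CPM in LIF/2i in KI, against 44.3, 47.5 and 52.6 CPM in LIF and 161, 148 and 100.1 CPM in LIF/2i in WT with MNase. The media did not overlap in either genotype, whereas the genotypes in LIF/2i overlapped through KI replicate 1. Itgb5 fell in LIF with a log2 fold change of -0.72 (SE 0.23, adjusted p = 0.0428) in KI and -1.50 (SE 0.24, adjusted p = 9.2e-04) in WT. In LIF/2i it was lower in KI with a log2 fold change of -0.83 (SE 0.23, adjusted p = 0.0191). The RNase I libraries held 43.8 and 33.8 CPM in LIF and 92.0 and 47.6 CPM in LIF/2i in KI, against 35.8 and 43.0 CPM in LIF and 113 and 106 CPM in LIF/2i in WT. The fall in WT passed at -1.48 (SE 0.30, adjusted p = 0.0144). The call between media in KI was lost without KI LIF replicate 2 or 3, KI LIF/2i replicate 1 or 3, WT LIF replicate 1, 2 or 3 or WT LIF/2i replicate 1 or 2 (adjusted p 0.0520 to 0.151), and also with scaling by library totals alone (0.0618), with libraries thinned to the smallest total (0.0917) and without WT replicate 2 in both media (0.0767). The call between genotypes was lost without KI LIF/2i replicate 2 or 3 or WT LIF/2i replicate 1 or 2 (adjusted p 0.0619 to 0.0889). It was also lost without WT replicate 2 in both media (0.0800).

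Itgb4 pairs with α6 in the hemidesmosomes of epithelia. It was at 31.5, 21.6 and 21.8 CPM in LIF and 27.6, 19.3 and 19.9 CPM in LIF/2i in KI, against 38.8, 42.9 and 33.6 CPM in LIF and 32.3, 31.4 and 49.2 CPM in LIF/2i in WT with MNase, so that every KI library was below every WT library of its medium. In LIF/2i it was lower in KI with a log2 fold change of -0.76 (SE 0.23, adjusted p = 0.0296), a call that was lost without KI LIF/2i replicate 2 or 3 or WT LIF/2i replicate 3 (adjusted p 0.0980 to 0.142). In LIF the difference was -0.62 (adjusted p = 0.0927), and -0.82 (adjusted p = 0.0111) without KI replicate 1 in both media. Digestion with RNase I gave 35.2 and 19.8 CPM in LIF and 29.3 and 13.01 CPM in LIF/2i in KI, against 48.2 and 52.4 CPM in LIF and 29.5 and 27.1 CPM in LIF/2i in WT, with an overlap between genotypes in LIF/2i and none in LIF. Itgb7, a partner of α4 and αE, was at 34.0, 26.1 and 29.4 CPM in LIF and 21.1, 17.2 and 15.0 CPM in LIF/2i in KI, against 21.0, 12.5 and 17.1 CPM in LIF and 10.99, 19.7 and 18.9 CPM in LIF/2i in WT with MNase. The KI libraries in LIF were above all others. It was higher in KI than in WT in LIF by 0.84 (SE 0.25, adjusted p = 0.0433) and rose in KI in LIF by 0.75 (SE 0.24, adjusted p = 0.0458). The first call was lost without KI LIF replicate 1, 2 or 3, KI LIF/2i replicate 2 or 3 or WT LIF replicate 1, 2 or 3 (adjusted p 0.0522 to 0.152), and also with scaling by library totals alone (0.0519), with libraries thinned to the smallest total (0.0811) and without WT replicate 2 in both media (0.157). The second was lost without KI LIF replicate 1, 2 or 3, KI LIF/2i replicate 2 or 3 or WT LIF replicate 1 or 3 (adjusted p 0.0502 to 0.153). It was further lost with a replicate block (0.0523) and with libraries thinned to the smallest total (0.117). RNase I gave levels of 39.9 and 31.4 CPM in LIF and 23.3 and 28.8 CPM in LIF/2i in KI, against 18.0 and 20.4 CPM in LIF and 18.1 and 20.4 CPM in LIF/2i in WT, where KI was above WT in LIF by 0.90 (adjusted p = 0.231).

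Itgb3, the other partner of αV and the platelet β chain, was at 2.62, 5.79 and 5.58 CPM in LIF and 1.37, 3.07 and 8.47 CPM in LIF/2i in KI, against 10.5, 12.7 and 16.4 CPM in LIF and 1.06, 1.76 and 6.64 CPM in LIF/2i in WT with MNase. The 3 WT libraries in LIF were the highest of the 12. Itgb3 rose in WT in LIF by 2.00 (SE 0.66, adjusted p = 0.0438), a call that was lost without KI LIF replicate 2 or 3, KI LIF/2i replicate 2, WT LIF replicate 1, 2 or 3 or WT LIF/2i replicate 1 or 2 (adjusted p 0.0521 to 0.143). The adjusted p was also above 0.05 without WT replicate 2 in both media (0.205). In LIF the difference between KI and WT was -1.51 (adjusted p = 0.110). The RNase I levels were 3.04 and 3.87 CPM in LIF and 1.35 and 5.34 CPM in LIF/2i in KI, against 16.4 and 13.5 CPM in LIF and 2.49 and 1.85 CPM in LIF/2i in WT, with WT in LIF again the highest and a rise in WT of 2.76 (SE 0.58, adjusted p = 0.0165). The β2 chain of leukocytes, Itgb2, and the β6 and β8 chains, Itgb6 and Itgb8, which bind latent TGF-β with αV, were not tested and had at most 1.12 CPM in any MNase library.

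**Figure D4:**
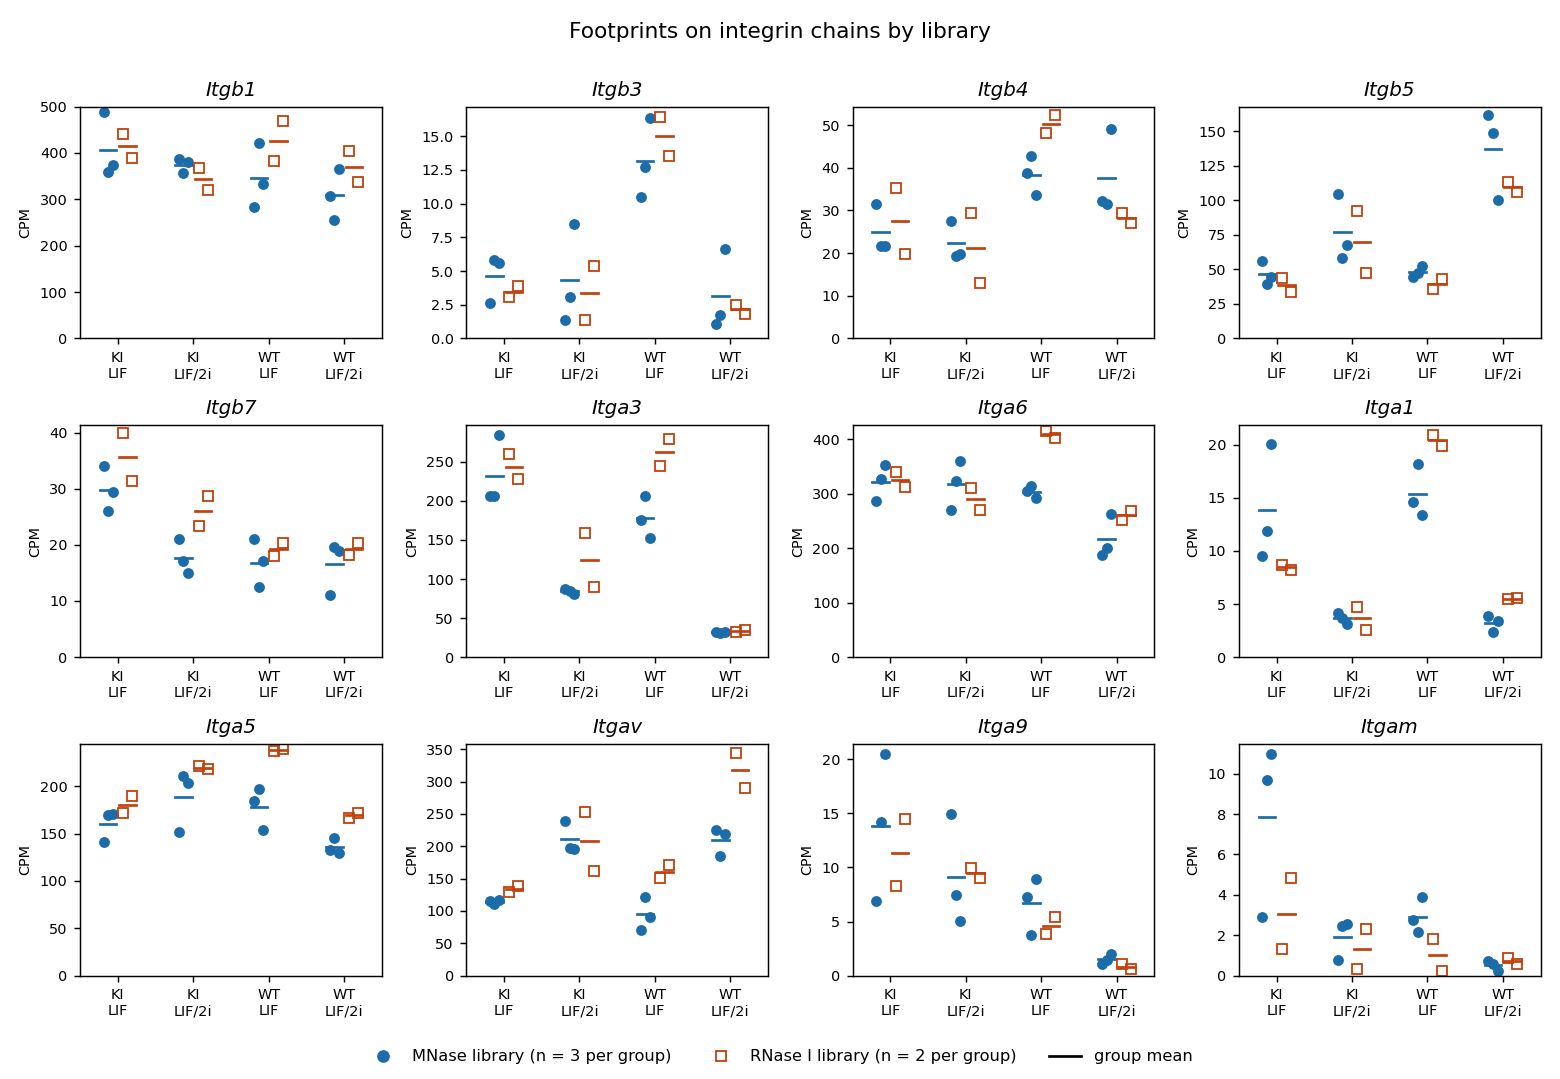
Footprints in CPM on 12 integrin chains in each library, with filled circles for MNase (3 per group), open squares for RNase I (2 per group) and a bar for the group mean. Itga3 in LIF/2i is at 81.2 to 87.3 CPM in KI and 31.1 to 32.7 CPM in WT with MNase, while Itgav and Itgb5 are lower in LIF than in LIF/2i in both genotypes.

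Of the α chains that bind laminin, Itga3 moved in the most comparisons. It was at 206, 206 and 285 CPM in LIF and 87.3, 85.1 and 81.2 CPM in LIF/2i in KI, against 175, 207 and 152 CPM in LIF and 32.6, 31.1 and 32.7 CPM in LIF/2i in WT with MNase. WT in LIF/2i was the lowest group, KI in LIF/2i lay above it and below both groups in LIF, and the groups in LIF overlapped. Itga3 rose in LIF by 1.46 (SE 0.15, adjusted p = 5.9e-05) in KI and by 2.47 (SE 0.16, adjusted p = 3.1e-06) in WT. In LIF/2i it was higher in KI by 1.39 (SE 0.16, adjusted p = 4.3e-04). No single left-out library ended these 3 calls, with highest adjusted p values of 5.6e-04, 4.2e-05 and 0.00292 in the same order. In LIF the difference between genotypes was 0.38 (adjusted p = 0.104), and 0.46 (adjusted p = 0.0359) without KI replicate 1 in both media. With RNase I the levels were 259.6 and 228 CPM in LIF and 159 and 89.4 CPM in LIF/2i in KI, against 245 and 279.9 CPM in LIF and 32.0 and 34.9 CPM in LIF/2i in WT. The order of the groups in LIF/2i was the same, the rise in WT was 2.97 (SE 0.27, adjusted p = 0.00160), and KI was above WT in LIF/2i by 1.90 (SE 0.26, adjusted p = 0.0337).

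Itga6, the α chain of the main laminin receptor of mESCs, was at 286, 326 and 353 CPM in LIF and 271, 323 and 359.6 CPM in LIF/2i in KI, against 304, 315 and 292 CPM in LIF and 188, 200.4 and 262 CPM in LIF/2i in WT with MNase. The 3 WT libraries in LIF/2i were below the other 9. It was higher in KI than in WT in LIF/2i by 0.55 (SE 0.15, adjusted p = 0.0160) and rose in WT in LIF by 0.49 (SE 0.15, adjusted p = 0.0323). In KI the difference between media was 0.02 (adjusted p = 0.951). Tested directly, the difference between these responses did not pass, at -0.47 (SE 0.21, adjusted p = 0.379). The call between genotypes was lost without KI LIF/2i replicate 2 or 3 or WT LIF/2i replicate 1 or 2 (adjusted p 0.0553 to 0.0707), and also with scaling by library totals alone (0.0546) and without WT replicate 2 in both media (0.0717). The call in WT was lost without WT LIF replicate 1, 2 or 3 or WT LIF/2i replicate 1 or 2 (adjusted p 0.0703 to 0.129), and also without WT replicate 2 in both media (0.193). Its RNase I values were 339 and 312 CPM in LIF and 311 and 271 CPM in LIF/2i in KI, against 414 and 403 CPM in LIF and 252 and 268 CPM in LIF/2i in WT, the rise in WT passed at 0.65 (SE 0.14, adjusted p = 0.0167), and KI against WT in LIF/2i was 0.16 (adjusted p = 0.653). Itga7, a laminin receptor of muscle, was at 4.15, 6.66 and 7.37 CPM in LIF and 2.44, 6.15 and 4.80 CPM in LIF/2i in KI, against 10.5, 14.1 and 8.79 CPM in LIF and 5.67, 2.05 and 13.3 CPM in LIF/2i in WT with MNase, and no comparison passed. The WT libraries in LIF/2i spread the most. The RNase I libraries held 6.95 and 13.5 CPM in LIF and 2.95 and 6.74 CPM in LIF/2i in KI, against 15.99 and 25.8 CPM in LIF and 3.85 and 3.58 CPM in LIF/2i in WT, and it rose in WT in LIF by 2.48 (SE 0.48, adjusted p = 0.0121).

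Of the chains that bind the RGD motif of fibronectin and vitronectin, Itgav, the αV chain, was at 115, 110.1 and 117 CPM in LIF and 239, 198 and 196 CPM in LIF/2i in KI, against 71.2, 122 and 90.6 CPM in LIF and 225, 185 and 219 CPM in LIF/2i in WT with MNase. In both genotypes each library in LIF was below each library in LIF/2i. Itgav fell in LIF with a log2 fold change of -0.89 (SE 0.17, adjusted p = 0.00273) in KI and -1.14 (SE 0.17, adjusted p = 6.4e-04) in WT. No single left-out library ended either call, with highest adjusted p values of 0.0142 and 0.00430. Digestion with RNase I gave 129 and 139 CPM in LIF and 253 and 162 CPM in LIF/2i in KI, against 150.4 and 171 CPM in LIF and 345 and 289 CPM in LIF/2i in WT, again without overlap between media. The fall in WT passed at -0.98 (SE 0.22, adjusted p = 0.0207). Itga5, the fibronectin receptor, was at 141, 169 and 171 CPM in LIF and 152, 211 and 203 CPM in LIF/2i in KI, against 185, 197 and 153 CPM in LIF and 133, 145 and 129 CPM in LIF/2i in WT with MNase. It was higher in KI than in WT in LIF/2i by 0.47 (SE 0.15, adjusted p = 0.0330), where the groups did not overlap, and the call was lost without KI LIF/2i replicate 2 or 3 or WT LIF/2i replicate 1 or 3 (adjusted p 0.0772 to 0.134). It was also lost with scaling by library totals alone (0.0924) and without WT replicate 2 in both media (0.0574). Between media the differences were -0.23 (adjusted p = 0.294) in KI and 0.39 (adjusted p = 0.0807) in WT. Without KI replicate 1 in both media the WT difference had an adjusted p of 0.0163. RNase I gave levels of 172 and 189 CPM in LIF and 221 and 218 CPM in LIF/2i in KI, against 237 and 239.5 CPM in LIF and 167 and 172 CPM in LIF/2i in WT, and it rose in WT in LIF by 0.49 (SE 0.13, adjusted p = 0.0419).

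Itga8, a receptor of nephronectin, was scarce, at 4.46, 3.47 and 2.46 CPM in LIF and 0.916, 1.02 and 1.27 CPM in LIF/2i in KI, against 1.37, 2.17 and 1.93 CPM in LIF and 0.355, 1.17 and 0.492 CPM in LIF/2i in WT with MNase. It rose in KI in LIF by 1.66 (SE 0.41, adjusted p = 0.0119), without overlap, and the call was lost without KI LIF/2i replicate 2 (adjusted p = 0.0533), and also without KI replicate 1 in both media (0.0506). In WT the difference was 1.43 (adjusted p = 0.0799), and leaving out WT LIF/2i replicate 2 gave 2.05 (adjusted p = 0.0485). The RNase I levels were 6.08 and 5.80 CPM in LIF and 0.799 and 0.697 CPM in LIF/2i in KI, against 2.03 and 4.67 CPM in LIF and 0.905 and 0.346 CPM in LIF/2i in WT. The rise in WT was 2.26 (SE 0.63, adjusted p = 0.0466). Itga2b, the platelet α chain, was tested with MNase and not called, with at most 4.11 CPM in any library.

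The promoters of 4 of the 7 members named above for moving the same way in both genotypes are shown for sequence context. RefSeq windows on GRCm38.p6, the 250 bases upstream of an annotated start, were found for 23 of the 37 members, 26 windows in all. The windows below belong to Itga3 and Lamb1, which rose in LIF in both genotypes, and to Itgav and Itgb5, which fell in both, and capitals mark each GC box (GGGCGG on either strand). The windows of Itga1, with no GC box, and Itgam, with 1, are not printed, and none was matched for Lamc1. Itga3 has 2 annotated windows, of which the upstream one is printed, at chr11:95076715-95076964 on the minus strand. The others lie at chr12:31265043-31265292 on the plus strand (Lamb1), chr2:83724147-83724396 on the plus strand (Itgav) and chr16:33829415-33829664 on the plus strand (Itgb5).
Itga3: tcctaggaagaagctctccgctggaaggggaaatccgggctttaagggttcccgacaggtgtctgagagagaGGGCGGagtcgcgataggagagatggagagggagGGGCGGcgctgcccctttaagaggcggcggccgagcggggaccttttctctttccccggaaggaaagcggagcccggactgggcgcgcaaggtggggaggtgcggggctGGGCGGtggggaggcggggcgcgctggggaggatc
Lamb1: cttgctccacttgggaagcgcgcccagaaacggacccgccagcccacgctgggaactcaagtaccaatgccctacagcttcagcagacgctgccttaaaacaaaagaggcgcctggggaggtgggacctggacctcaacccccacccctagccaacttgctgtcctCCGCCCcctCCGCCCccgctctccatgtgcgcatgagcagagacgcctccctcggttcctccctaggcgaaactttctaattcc
Itgav: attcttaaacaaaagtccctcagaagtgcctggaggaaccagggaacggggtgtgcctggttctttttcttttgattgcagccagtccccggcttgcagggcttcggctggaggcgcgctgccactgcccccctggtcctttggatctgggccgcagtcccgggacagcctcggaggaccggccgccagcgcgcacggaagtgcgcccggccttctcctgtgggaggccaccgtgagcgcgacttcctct
Itgb5: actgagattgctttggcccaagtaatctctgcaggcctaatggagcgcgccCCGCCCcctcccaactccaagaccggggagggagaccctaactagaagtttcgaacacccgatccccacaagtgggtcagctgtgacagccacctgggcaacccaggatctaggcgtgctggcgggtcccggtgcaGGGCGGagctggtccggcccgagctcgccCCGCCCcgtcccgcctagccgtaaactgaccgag

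The window of Itga3 holds 3 GC boxes, that of Lamb1 holds 2 and that of Itgb5 holds 3, while these letters are not in the window of Itgav. A GC box was present in 9 of the 26 member windows and in 32.7% of all 32851 windows. An AP-1 element (TGANTCA) was in 1 member window and in 6.7% of all, a TCF/LEF core (CTTTGNT) in 2 and 16%, and a GATA element (AGATAA) in 1 and 10.0%, with both strands searched. The composite element of CHOP and ATF4 (TGATGNAA), factors downstream of eIF2α phosphorylation, was in 0 member windows and 3.5% of all, and the TATA box (TATAAA) in 0 and 12.4%. A match is a description of the letters and not a site of binding.

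Of the α chains that bind collagen, Itga1 was at 9.54, 11.9 and 20.1 CPM in LIF and 4.12, 3.71 and 3.11 CPM in LIF/2i in KI, against 14.6, 18.2 and 13.4 CPM in LIF and 3.90, 2.35 and 3.44 CPM in LIF/2i in WT with MNase. Every library in LIF was above every library in LIF/2i. Itga1 rose in LIF by 1.93 (SE 0.31, adjusted p = 9.96e-04) in KI and 2.25 (SE 0.35, adjusted p = 7.1e-04) in WT. No single left-out library ended either call, with highest adjusted p values of 0.00713 and 0.00469. With RNase I the levels were 8.68 and 8.22 CPM in LIF and 4.73 and 2.56 CPM in LIF/2i in KI, against 20.9 and 19.9 CPM in LIF and 5.47 and 5.54 CPM in LIF/2i in WT. The rise in WT passed at 1.89 (SE 0.33, adjusted p = 0.00844). The fibroblast and feeder sums, 331 to 369 CPM in KI in LIF and 87.0 to 120.5 CPM in KI in LIF/2i, and 152 to 1119 and 36.7 to 52.1 CPM in WT, were also higher in LIF. Their part in it was not tested. Itga1 was at 14.6 and 13.4 CPM in the WT LIF libraries whose fibroblast sums were 272 and 152 CPM, and at 18.2 CPM in the one with 1119 CPM. Itga10, a receptor of cartilage, was at 2.62, 9.41 and 9.61 CPM in LIF and 1.37, 7.94 and 4.94 CPM in LIF/2i in KI, against 4.56, 4.61 and 4.75 CPM in LIF and 2.84, 3.52 and 2.95 CPM in LIF/2i in WT with MNase, and KI replicate 1 was the lowest library of each KI group. No comparison passed with all libraries, and without KI replicate 1 in both media KI was above WT by 1.05 (adjusted p = 0.0175) in LIF/2i and 1.02 (adjusted p = 0.0181) in LIF. Its RNase I values were 3.91 and 11.1 CPM in LIF and 2.15 and 7.43 CPM in LIF/2i in KI, against 4.05 and 4.92 CPM in LIF and 1.76 and 3.00 CPM in LIF/2i in WT, again with KI replicate 1 the lower. Itga2 and Itga11, the other collagen receptors, were not tested.

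Itga9, a chain that binds tenascin and osteopontin, was at 6.92, 14.2 and 20.4 CPM in LIF and 15.0, 7.43 and 5.08 CPM in LIF/2i in KI, against 7.30, 3.80 and 8.97 CPM in LIF and 1.06, 1.47 and 1.97 CPM in LIF/2i in WT with MNase. The WT libraries in LIF/2i were below all others. Itga9 was higher in KI than in WT in LIF/2i by 2.55 (SE 0.58, adjusted p = 0.00754), with a highest adjusted p of 0.0295 when any 1 library was left out. The largest KI value in LIF/2i came from KI replicate 1, and without it in both media the difference was 2.00 (adjusted p = 0.00358). In LIF KI over WT was 1.04 (adjusted p = 0.157), and 1.35 (adjusted p = 0.00944) without KI replicate 1 in both media. Between media in KI it was 0.61 (adjusted p = 0.368), and 1.47 (adjusted p = 0.00854) without it. In WT it rose in LIF by 2.12 (SE 0.61, adjusted p = 0.0250), a call that was lost without WT LIF replicate 1 or 3 or WT LIF/2i replicate 1 or 2 (adjusted p 0.0563 to 0.109). It was further lost with libraries thinned to the smallest total (0.0913) and without WT replicate 2 in both media (0.0657). The RNase I libraries held 8.25 and 14.5 CPM in LIF and 9.95 and 9.06 CPM in LIF/2i in KI, against 3.83 and 5.41 CPM in LIF and 1.04 and 0.577 CPM in LIF/2i in WT. There KI was again above WT in LIF/2i, by 3.45 (SE 0.46, adjusted p = 0.0337). The rise in WT was 2.40 (SE 0.48, adjusted p = 0.0134). Itga4, the related chain of leukocytes and neural crest, was not tested, at no more than 0.615 CPM in any MNase library.

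The leukocyte α chains had at most 17.5 CPM in any MNase library, the value of Itgal in KI LIF/2i replicate 2. Itgam, the αM chain of macrophages and neutrophils, was at 2.92, 9.70 and 10.9 CPM in LIF and 0.763, 2.43 and 2.54 CPM in LIF/2i in KI, against 2.74, 2.17 and 3.87 CPM in LIF and 0.709, 0.587 and 0.246 CPM in LIF/2i in WT with MNase. It rose in LIF by 2.02 (SE 0.51, adjusted p = 0.0143) in KI and 2.56 (SE 0.79, adjusted p = 0.0324) in WT, without overlap between media. The KI call was lost without KI LIF replicate 2 or 3 (adjusted p 0.0524 to 0.0738). The WT call, against 5 counts in all in LIF/2i, was lost without WT LIF replicate 1 or 3 or WT LIF/2i replicate 1, 2 or 3 (adjusted p 0.0580 to 0.121). The adjusted p was also above 0.05 without WT replicate 2 in both media (0.0974) and with both nucleases in 1 fit (0.0917). KI replicate 1 was the lowest KI library in both media, and without it KI was above WT by 2.29 (adjusted p = 0.00428) in LIF/2i and 1.76 (adjusted p = 0.00191) in LIF. Digestion with RNase I gave 1.302 and 4.83 CPM in LIF and 0.307 and 2.32 CPM in LIF/2i in KI, against 1.80 and 0.246 CPM in LIF and 0.860 and 0.577 CPM in LIF/2i in WT, with overlap between media in both genotypes and no call. Its partner Itgb2 had at most 1.08 CPM in any MNase library, and Adgre1 was at 0 in 11 of the 12 MNase libraries. Of the 10 leukocyte markers, however, only 2 were at 0 in KI in LIF and 1 in WT in LIF with MNase. Among the 4 tested, 1 rose and 1 fell in LIF in KI (18.7% of all genes called), and 0 passed in WT (21%). The leukocyte sums were 29.4 to 38.4 CPM in KI in LIF, 26.9 to 37.5 in KI in LIF/2i, 22.3 to 30.4 in WT in LIF and 14.2 to 36.7 in WT in LIF/2i, and their part in the values of Itgam was not tested.

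Itgae, the αE chain of mucosal lymphocytes, was at 0.769, 1.16 and 0.558 CPM in LIF and 1.68, 0.768 and 0.988 CPM in LIF/2i in KI, against 0.913, 0.814 and 1.06 CPM in LIF and 2.48, 2.05 and 3.69 CPM in LIF/2i in WT with MNase. It fell in WT in LIF with a log2 fold change of -1.53 (SE 0.51, adjusted p = 0.0466), a call that was lost without KI LIF replicate 2 or 3, KI LIF/2i replicate 2 or 3, WT LIF replicate 1, 2 or 3 or WT LIF/2i replicate 1, 2 or 3 (adjusted p 0.0534 to 0.156), and also with scaling by library totals alone (0.0541), without the filter on low counts (0.0789), with DESeq2 (0.108), with a replicate block (0.0641), without WT replicate 2 in both media (0.135) and with both nucleases in 1 fit (0.0853). In LIF/2i KI was below WT with a log2 fold change of -1.28 (adjusted p = 0.0526) with all libraries and -1.65 (adjusted p = 0.0199) without KI replicate 1 in both media. RNase I gave levels of 1.302 and 3.38 CPM in LIF and 4.79 and 1.39 CPM in LIF/2i in KI, against 2.70 and 0.984 CPM in LIF and 2.62 and 2.31 CPM in LIF/2i in WT, where the groups overlapped. Itgal, the αL chain of lymphocytes, was at 7.85, 13.2 and 15.6 CPM in LIF and 4.58, 17.5 and 13.3 CPM in LIF/2i in KI, against 5.93, 5.42 and 8.79 CPM in LIF and 6.38, 4.70 and 7.87 CPM in LIF/2i in WT with MNase, and no comparison passed with all libraries. KI replicate 1 was the lowest KI library in each medium. Without it in both media KI was above WT by 1.27 (adjusted p = 0.00348) in LIF/2i and 1.05 (adjusted p = 0.0142) in LIF. The RNase I levels were 10.4 and 15.95 CPM in LIF and 4.24 and 14.9 CPM in LIF/2i in KI, against 7.66 and 8.36 CPM in LIF and 5.56 and 6.81 CPM in LIF/2i in WT, with KI replicate 1 again the lower KI library. Itgad and Itgax, of macrophages and dendritic cells, had 4 and 2 counts over all 20 libraries.

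Whether the response to the medium differed between genotypes was tested with the interaction of genotype and medium. No member passed in the edgeR test with MNase (background 0.336%), where 8 of 27 members and 12.2% of all genes had an unadjusted p under 0.05. None passed with RNase I (background 0%), where 6 of 26 members and 5.33% of all genes had. The differences nearest to the threshold were those of Itga3, -1.01 (SE 0.22, adjusted p = 0.0740), and Lama1, -1.31 (SE 0.29, adjusted p = 0.0845), with the fold change of LIF over LIF/2i lower in KI than in WT for each. The RNase I values were -2.01 (SE 0.36, adjusted p = 0.521) for Itga3 and -1.17 (SE 0.26, adjusted p = 0.521) for Lama1. Both passed with DESeq2 (-0.99 with adjusted p = 0.00822 for Itga3, -1.29 with 0.00598 for Lama1), beside 1.68% of all genes. They also passed with the replicate block within KI (-1.03 with 0.0350, and -1.29 with 0.0418), beside 1.2% of all genes. Without KI replicate 1 in both media 3 members passed, beside 3.45% of all genes, namely Itga3 (-0.90, adjusted p = 0.0463), Lama1 (-1.39, adjusted p = 0.0341) and Itga5 (-0.67, adjusted p = 0.0479). Itga3 also passed without KI LIF replicate 3 (-1.18, adjusted p = 0.0320). Without WT replicate 2 in both media no member passed, beside 0.138% of all genes. With RNase I 1 member passed without KI LIF/2i replicate 2.

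The nucleases were compared on replicates 1 and 2 of all groups, 16 libraries. Relative to TMM-adjusted totals, footprints were higher with RNase I than with MNase on 9 of 27 members and lower on none. The background was 32% of 12732 genes, 15.7% higher and 16.4% lower with RNase I. The number of members called was thus near the share of all genes. Of the laminin chains, Lamb2 was higher with RNase I by 0.85 (SE 0.17, adjusted p = 9.1e-04), Lamc1 by 0.70 (SE 0.11, adjusted p = 9.0e-05), Lamb1 by 0.70 (SE 0.15, adjusted p = 0.00185) and Lama1 by 0.60 (SE 0.10, adjusted p = 2.4e-04). Lama3 and Lama5 had differences of -0.04 and 0.12 that did not pass. Of the integrin chains, Itgae was higher with RNase I by 1.01 (SE 0.36, adjusted p = 0.0396) and Itgav by 0.42 (SE 0.14, adjusted p = 0.0242), while Itga3, Itga5 and Itga6 had called differences of 0.38, 0.32 and 0.26. Leaving out 1 library at a time gave 6 to 9 calls, with 6 without WT LIF/2i RNase I replicate 1 or WT LIF RNase I replicate 1. These values do not pair the libraries of a group and number, and with each such pair as a replicate block 11 members were higher and 1 lower with RNase I, beside 47.1% of all genes.

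A contrast between groups could also differ between nucleases, and this was tested directly after the MNase and RNase I values had been seen side by side. In edgeR without pairs no gene passed for any of the 4 contrasts (background 0%). At an unadjusted p under 0.05, 4 members passed for KI against WT in LIF/2i (8.78% of all genes), 0 for KI against WT in LIF (2.92%), 2 for LIF against LIF/2i in KI (2.76%) and 0 for LIF against LIF/2i in WT (0.723%). That of Lamc1 was -0.81 (SE 0.19, adjusted p = 0.291) for KI against WT in LIF/2i, RNase I minus MNase, and DESeq2 gave -0.81 (adjusted p = 0.00613) for it. For Lamb1 the same difference was -1.02 (SE 0.31, adjusted p = 0.407) in edgeR. With the libraries of a group and number paired as a replicate block, 5 members passed for KI against WT in LIF/2i, each with a lower log2 fold change with RNase I, beside 15.3% of all genes. They were Lamc1 (-0.82, SE 0.12, adjusted p = 4.6e-04), Lamb1 (-1.04, SE 0.20, adjusted p = 0.00240), Itgav (-0.70, SE 0.16, adjusted p = 0.00878), Lamb2 (-0.55, SE 0.16, adjusted p = 0.0290) and Itgb1 (-0.49, SE 0.13, adjusted p = 0.0153). For LIF against LIF/2i in KI 2 passed, both with a higher log2 fold change with RNase I, beside 0.935%, namely Lama5 (0.68, SE 0.13, adjusted p = 0.0153) and Lamc1 (0.53, SE 0.12, adjusted p = 0.0460). None passed for KI against WT in LIF (0.738%) or LIF against LIF/2i in WT (0.0236%).

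**Figure D5:**
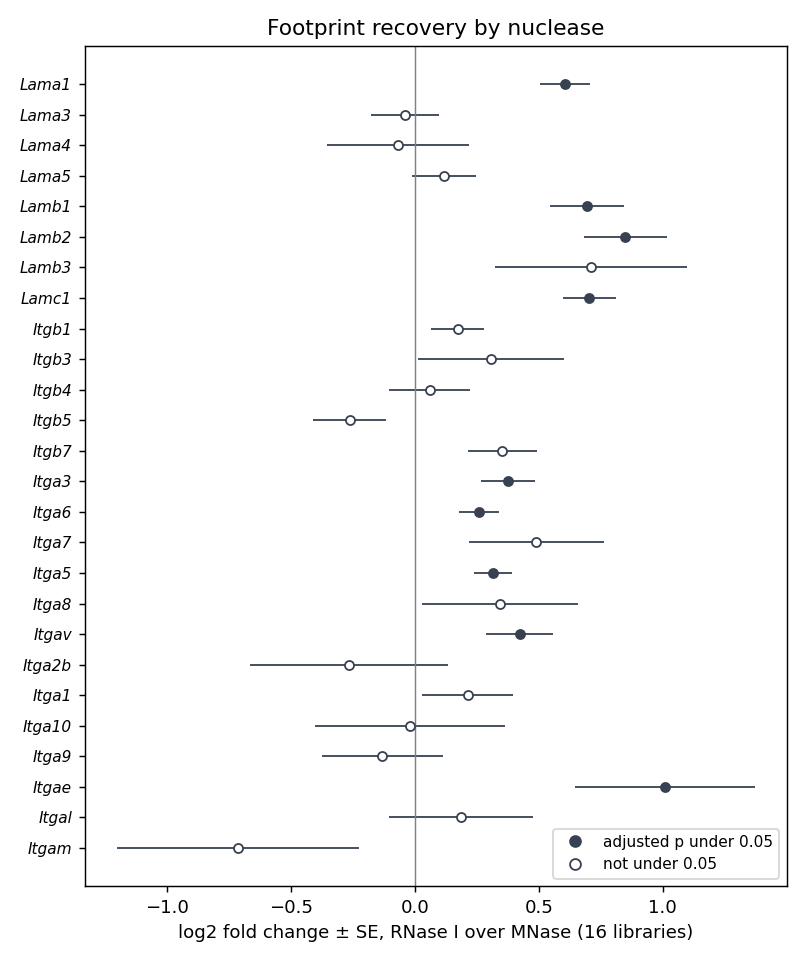
Log2 fold change of RNase I over MNase ± SE for 26 tested members over 16 libraries, with filled points for an adjusted p under 0.05. The 9 filled points all lie right of 0, from 0.26 for Itga6 to 1.01 for Itgae.

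The ligands, adaptors and other receptors that work with these chains moved in both directions. The counts over the lists below are to be read against the shares of all genes called with MNase, 18.7% for LIF over LIF/2i in KI, 21% in WT, 25.4% for KI over WT in LIF/2i and 13.4% in LIF. The RNase I shares were 3.46%, 13.6%, 0.232% and 0.116% in the same order. Among 25 tested ligands of integrins other than laminins, 3 rose and 6 fell in LIF in KI, and 6 rose and 5 fell in WT, with medians of -0.54 and -0.06. Fn1, fibronectin, fell with a log2 fold change of -1.60 (SE 0.15, adjusted p = 4.1e-05) in KI and -1.58 (SE 0.15, adjusted p = 4.2e-05) in WT, and Jam2, a junction protein that binds β1 integrins, with a log2 fold change of -2.43 (SE 0.20, adjusted p = 2.6e-05) and -2.12 (SE 0.21, adjusted p = 4.8e-05). Fn1 was at 1214 to 1472 CPM in KI in LIF, 3831 to 4518 in KI in LIF/2i, 1053 to 1535 in WT in LIF and 3454 to 4339 in WT in LIF/2i with MNase, so the media did not overlap. Spp1, osteopontin, fell in KI in LIF with a log2 fold change of -1.44 (SE 0.15, adjusted p = 5.7e-05), and its interaction of genotype and medium passed at -1.36 (SE 0.20, adjusted p = 0.0126). It was lower in KI than in WT in LIF (-0.91, SE 0.15, adjusted p = 0.00261) and higher in LIF/2i (0.45, SE 0.14, adjusted p = 0.0374). In LIF/2i 4 ligands were higher in KI and 0 lower, against 1 higher and 3 lower in LIF. With RNase I, of 24 tested ligands 2 rose and 2 fell in LIF in KI, 5 rose and 4 fell in WT, and none passed between genotypes. The RNase I medians were -0.09 in KI and 0.46 in WT between media. For KI over WT in LIF/2i the median was -0.12 with RNase I, against 0.37 with MNase.

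Of 16 tested basement membrane components other than laminins, 3 rose and 4 fell in LIF in KI, and 5 rose and 4 fell in WT, with medians of 0.23 and 0.70. Nid1, nidogen, which links laminin to collagen IV, fell in LIF with a log2 fold change of -2.36 (SE 0.23, adjusted p = 4.4e-05) in KI and -2.17 (SE 0.23, adjusted p = 5.6e-05) in WT, and Nid2 with a log2 fold change of -1.16 (SE 0.13, adjusted p = 8.8e-05) and -0.65 (SE 0.13, adjusted p = 0.00320). In LIF 6 components were lower in KI than in WT and 1 higher, with a median of -0.51, the smallest p being that of Hspg2, perlecan (-1.11, SE 0.27, adjusted p = 0.0164), and Egfl6, which binds integrins, following at -1.49 (SE 0.39, adjusted p = 0.0246). In LIF/2i 1 was lower and 0 higher, namely Col4a2, a collagen IV chain (-2.24, SE 0.72, adjusted p = 0.0363). With RNase I 1 of 16 rose and 3 fell in LIF in KI, and 8 rose and 3 fell in WT, with medians of 0.44 and 1.06. Between genotypes with RNase I, 1 was lower in KI in LIF and none passed in LIF/2i.

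Of 35 tested adaptors and focal adhesion proteins, 5 rose and 6 fell in LIF in KI, and 9 rose and 5 fell in WT. Bcar1, the adaptor p130Cas, rose by 1.01 (SE 0.14, adjusted p = 4.3e-04) in KI and 1.28 (SE 0.14, adjusted p = 9.4e-05) in WT, and Vcl, vinculin, fell in KI with a log2 fold change of -0.96 (SE 0.13, adjusted p = 3.8e-04). Between genotypes 4 were higher and 4 lower in KI in LIF/2i, among them Vcl (0.70, SE 0.13, adjusted p = 0.00317) and Ilk, integrin-linked kinase (1.02, SE 0.21, adjusted p = 0.00477). In LIF 1 was higher and 3 lower, among them Tln1, talin, which activates integrins (-0.67, SE 0.14, adjusted p = 0.00778). Of 11 membrane partners of integrins, 1 rose and 3 fell in LIF in KI, and 2 rose and 2 fell in WT. The tetraspanin Cd63 fell in KI in LIF with a log2 fold change of -2.56 (SE 0.28, adjusted p = 8.4e-05) and passed the interaction at -2.79 (SE 0.39, adjusted p = 0.00914). In KI against WT, 2 partners were higher and 1 lower in LIF/2i, and 0 higher and 2 lower in LIF. Of 22 other laminin receptors and their glycosylation enzymes, 1 rose and 3 fell in LIF in KI, and 3 rose and 4 fell in WT, with Dmd, dystrophin, falling with a log2 fold change of -0.61 (SE 0.16, adjusted p = 0.0189) and -1.58 (SE 0.17, adjusted p = 8.5e-05). In KI against WT, 1 was higher and 2 lower in LIF/2i, and 1 higher and 1 lower in LIF, and the syndecan Sdc4 was lower in both media, at -1.43 (SE 0.35, adjusted p = 0.0116) in LIF/2i and -1.49 (SE 0.36, adjusted p = 0.0164) in LIF. With RNase I, 1 of 34 tested adaptors rose in LIF in KI and 0 fell, while 5 rose and 2 fell in WT. Of 10 tested partners none passed in KI with RNase I, and 2 rose and 1 fell in WT. Of the 22 other laminin receptors 1 rose and 1 fell in KI, and 2 rose and 2 fell in WT. None of these 3 lists had a member called between genotypes with RNase I.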

How the data were processed

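Ribosome footprints were counted per gene in 20 libraries. The deposited table holds raw counts made by the authors, who used cutadapt 3.4, Bowtie 1.3.0 and UMI-tools 1.0.1 per the submitters' processing notes. The genome build and the way reads were assigned to genes are not given in the sources used here, and a gene's overlap with related genes could not be checked.

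MNase and RNase I libraries were fitted separately with edgeR 4.0.16 (R 4.3.3): filterByExpr, TMM scaling, a mean per genotype and medium, and the two-sided quasi-likelihood test, adjusted by Benjamini-Hochberg over all genes tested, with 0.05 as the threshold. Levels are given as CPM, for which TMM-adjusted totals were the denominator. Log2 fold changes run KI over WT, LIF over LIF/2i and RNase I over MNase. A member is described in full where it passed in at least 1 MNase comparison or averaged at least 5 CPM in an MNase group, and up to 3 genes of each related list are named by smallest p, with their values in paired comparisons beside them. The members and lists were chosen with earlier results of these data known. No level is compared between genes, since coding lengths were not used.

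Replicate numbers were checked as pairs. The same-numbered KI libraries deviated together between media (correlations 0.563, 0.315 and 0.393). KI replicates 2 and 3 also did so across numbers (0.404 and 0.367), and replicate 1 ran against both (-0.508 to -0.431). The shared deviation thus set KI replicate 1 apart from 2 and 3 and did not tell 2 from 3. Same-numbered libraries of the other MNase comparisons had correlations of -0.0993 to 0.118. The same-numbered libraries of the nucleases deviated together. The alternatives were scaling by library totals, no filter on low counts, DESeq2 1.42.0, a replicate block, thinning to the smallest library, leaving out each library, leaving out KI replicate 1 in both media, and fitting both nucleases together. The block within KI, leaving out WT replicate 2 in both media, and the tests of nuclease differences with and without paired libraries were added after seeing the data. The fits were tested on simulated data. Of the members, 1 is counted among the totals and is not reported here.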

Additional observations from a re-analysis of the deposited data

How the results depend on the processing

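None of the 38 MNase calls on members changed sign in any setting run, and 16 stayed past the threshold in all of them. These settings refit the same MNase libraries, which makes a change of sign unlikely. In the separate RNase I fit, Lamb1 and Lamc1 had the opposite sign for KI against WT in LIF/2i. Counts of members called with MNase that moved by over 1.5 times were as follows. A percentage in brackets is the share of all genes called in that setting. Counts here without one, and those below with single libraries left out, are not set against all genes. KI against WT in LIF/2i gave 16 without KI replicate 1 in both media (39.1%) and 5 without WT replicate 2 in both media (16.5%). KI against WT in LIF gave 1 by library totals, 1 after thinning, 11 without KI replicate 1 (26.7%) and 1 without WT replicate 2 (6.68%). It also gave 6 with the replicate block within KI (22.3%) and 5 with both nucleases in 1 fit (20.8%). LIF against LIF/2i in KI gave 6 after thinning, and in WT 6 without WT replicate 2 (9.58%). The interaction gave 2 with DESeq2 (1.68%), 3 without KI replicate 1 (3.45%), 2 with the block within KI (1.2%) and 3 with both nucleases (2.02%). With RNase I, thinning gave 1 for KI against WT in LIF/2i, 3 for the medium in KI and 8 for the medium in WT. The medium in KI also gave 2 by library totals, 9 without a filter, 6 with DESeq2 (6.82%) and 2 with a replicate block (4.07%). The RNase I interaction gave 1 without a filter and 1 with DESeq2 (0.223%). The difference between nucleases in KI against WT in LIF/2i gave 1 with DESeq2 (0.62%) and 5 with the replicate block by group and number (15.3%). That block gave 2 for LIF against LIF/2i in KI (0.935%). The cause of these moves was not tested.

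With each library left out in turn, MNase counts were 3 to 13 for KI against WT in LIF/2i, 1 to 4 in LIF, 7 to 11 for the medium in KI, 8 to 16 in WT and 0 to 1 for the interaction. RNase I counts were 0 to 2, 0 to 1, 1 to 4, 3 to 16 and 0 to 1 in the same order, the nuclease comparison gave 6 to 9, and its differences in the 4 contrasts gave 0 to 0. The plain replicate block gave 10, 3, 10, 13 and 0 with MNase in the same order. The shares of all genes beside these were 26.8%, 14.7%, 20%, 22.2% and 0.429%. The same-numbered WT libraries had correlations of 0.0153 to 0.0778 between media over all genes, although the Y-linked genes set WT replicate 2 apart in both. The 2 to 3 libraries per group and the low counts of Lamb3, Itgam, Lama4 and Itga8 in WT in LIF/2i with MNase (3, 5, 7 and 7 in all) limit the precision.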
